A study of Caenorhabditis elegans with 2 samples.

Results

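Small nucleolar RNA (snoRNA) genes were examined in a chromatin immunoprecipitation (ChIP-seq) experiment on DMD-8, a DM domain transcription factor of the nematode Caenorhabditis elegans. All 346 nuclear genes that the Ensembl annotation of the WBcel235 assembly classes as snoRNA were taken, out of 46890 nuclear genes, and each was extended by 200 bp on both sides. A gene was counted as having a summit when the summit of a deposited peak, the base of highest signal, lay in that window. The rule that picks the genes uses no measured value, but the members were chosen with earlier results of these data known.

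The 2 samples were biological replicates of a single group. They were whole L4 larvae of strain OP775, aged 48.5 hours and synchronised by starving L1 larvae after bleaching. The strain carries the insertion wgIs775, a dmd-8 transgene tagged with TY1, EGFP and 3xFLAG, together with unc-119(+), in an unc-119(tm4063) background. Tagged protein was precipitated with an anti-GFP antibody from sonicated chromatin, so the signal is that of the transgene product over all tissues of the worm, and the sex of the larvae was not collected. With 1 group there was no treatment to compare and no test over samples. Control libraries and read depth were not analysed here, and no marker of a tissue can be read from peak lists.

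SnoRNAs guide the chemical modification of ribosomal and spliceosomal RNAs in the nucleolus: those with C and D boxes direct methylation of the ribose, and those with H and ACA boxes direct the change of uridine to pseudouridine. In nematodes many lie in introns of coding genes, and others have promoters of their own. RNA polymerase III transcribes tRNA genes from an internal promoter made of an A box and a B box, which transcription factor TFIIIC binds. Some small RNA genes of other eukaryotes, including snoRNA genes of budding yeast and plants, also carry such boxes.

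The genes with the highest signal show where the summits lay. Each line below runs 5′ to 3′ along the snoRNA strand of the WBcel235 reference, from 100 bases before the annotated gene to its end; the line for B0334.12 runs from the first base of the gene to 20 bases past a summit downstream of it. Capitals mark matches to the A box consensus or to the B box GTTCNANNC on either strand. The first 5 lines hold the 6 genes of highest conservative signal apart from ZK265.10 and Y23H5B.10, whose sequences are not shown. The last 2 lines hold genes with an annotated tRNA pseudogene just upstream, one with a summit and one without, and were chosen after their values were seen.
ZK994.7 (chrV:8500479-8500645, plus strand): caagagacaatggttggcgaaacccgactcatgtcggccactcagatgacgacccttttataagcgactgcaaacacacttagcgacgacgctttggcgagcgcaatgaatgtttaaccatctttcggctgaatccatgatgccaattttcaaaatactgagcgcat
C51F7.4 and C51F7.3 (chrV:12303499-12303783, plus strand): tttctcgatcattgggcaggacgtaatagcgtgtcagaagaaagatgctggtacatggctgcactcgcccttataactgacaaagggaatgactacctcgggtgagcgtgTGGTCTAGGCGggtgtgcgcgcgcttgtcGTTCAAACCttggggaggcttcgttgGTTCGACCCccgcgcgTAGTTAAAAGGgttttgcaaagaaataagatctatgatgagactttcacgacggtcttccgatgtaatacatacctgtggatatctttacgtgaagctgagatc
T03F7.8 (chrV:11314158-11314332, plus strand): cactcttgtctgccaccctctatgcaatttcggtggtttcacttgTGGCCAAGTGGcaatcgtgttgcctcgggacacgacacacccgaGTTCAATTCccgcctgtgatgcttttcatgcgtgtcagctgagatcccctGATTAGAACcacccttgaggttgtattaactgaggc
W03C9.9 (chrII:11960798-11960959, plus strand): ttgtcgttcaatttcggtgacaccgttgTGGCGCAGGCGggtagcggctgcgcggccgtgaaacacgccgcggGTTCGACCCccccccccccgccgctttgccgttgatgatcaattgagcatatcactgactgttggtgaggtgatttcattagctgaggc
B0334.12 (chrII:11484683-11484831, plus strand): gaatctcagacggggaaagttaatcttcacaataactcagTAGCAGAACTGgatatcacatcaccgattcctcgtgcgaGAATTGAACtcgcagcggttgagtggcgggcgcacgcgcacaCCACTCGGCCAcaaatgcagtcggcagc
D1046.6 (chrIV:8927165-8927393, plus strand): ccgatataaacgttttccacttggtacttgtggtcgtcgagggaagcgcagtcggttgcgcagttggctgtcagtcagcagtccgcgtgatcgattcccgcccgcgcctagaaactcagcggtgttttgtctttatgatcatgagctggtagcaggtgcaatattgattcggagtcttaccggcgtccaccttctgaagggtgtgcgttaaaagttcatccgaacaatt
Y59E1B.14 (chrX:1891409-1891629, plus strand): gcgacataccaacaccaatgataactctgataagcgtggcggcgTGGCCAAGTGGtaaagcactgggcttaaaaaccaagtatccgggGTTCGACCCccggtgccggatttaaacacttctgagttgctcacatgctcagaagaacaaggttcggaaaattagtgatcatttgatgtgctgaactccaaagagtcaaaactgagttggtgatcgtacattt

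In the lines of T03F7.8 and W03C9.9 an A box and a B box stand upstream of the gene, which starts at base 101 of each line. The summit lay on the A box in both, at base 52 in T03F7.8 and at base 39 in W03C9.9. T03F7.8 also has a B box match on the opposite strand, inside the gene. The line of C51F7.4 and C51F7.3 has its summit at base 120, within the A box that starts at base 111. All box matches of that line lie inside the annotated C51F7.4 and upstream of C51F7.3, which starts at base 210. B0334.12 has a box pair downstream of the gene on the opposite strand, with the B box at base 80, the A box at base 122 and the summit at base 129, and an A box match on the gene strand inside the gene. ZK994.7, the gene with the highest signal of all, has no match to either box in its line, and its summit lay at base 93. D1046.6, with its summit at base 59, has no match either, while Y59E1B.14 has an A box at base 45 and a B box at base 89.

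DMD-8 summits lay at 78 of the 346 snoRNA genes in the conservative list, the deposited list of 1537 peaks that passed the irreproducible discovery rate (IDR) comparison of the replicates. That is 22.5% (exact Clopper-Pearson 95% interval 18.2% to 27.3%, which covers the counting of genes only), against 3.99% of all nuclear genes extended in the same way. Replicate 1's own thresholded list, of 629 peaks, had summits at 58 genes (16.8%, 13.0% to 21.1%), against 2.11% of all nuclear genes. Replicate 2's list, of 528 nuclear peaks, had summits at 52 genes (15.0%, 11.4% to 19.2%), against 1.87% of all nuclear genes. Coding genes are longer than snoRNA genes, so windows of equal size around the annotated 5′ ends were also counted. Of the snoRNA genes, 75 had a conservative summit within 200 bp of the 5′ end (21.7%, 17.4% to 26.4%), against 2.13% of all nuclear genes. Only 19973 of the 46890 nuclear genes are protein-coding, and the shares of all nuclear genes were not matched for gene class. In each of the 3 lists the snoRNA share was thus several times the share of all genes, and its interval lay above that share.

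The 78 genes had 77 different summits, since C51F7.4 and C51F7.3 share one. At 2 genes with more than 1 summit, the one of highest signal was used. None of the chosen summits lay within 200 bp of an annotated tRNA, snRNA or miRNA gene (0 of 78). At 21 of the 78 genes the summit also lay between 1000 bp upstream and 200 bp downstream of the start of a coding gene. The share of all conservative summits in such windows was not counted, so this count shows nothing particular to snoRNA genes.

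SnoRNA peaks were concentrated among the strongest peaks. The signal is the authors' peak caller's value per peak and is comparable only within a list. Of the 20 strongest conservative peaks, 11 lay at snoRNA genes (55.0%), against 79 of all 1537 peaks (5.14%). The 20 strongest nuclear peaks of replicate 1 included 11 at snoRNA genes, and those of replicate 2 included 10. When the conservative list was cut by signal into 5 groups of equal size, the top group had 45 of 308 peaks at snoRNA genes (14.6%, 10.9% to 19.1%), and the other groups had between 2.28% and 3.58%. The median snoRNA summit had a signal of 156, against 90.6 for the whole list, and stood at percentile 86.2 of its list. In replicate 1 the median stood at percentile 83.15 and in replicate 2 at percentile 84.6 of those lists.

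ZK994.7, in an intron of the peroxidasin gene pxn-1, had the highest signal of the whole conservative list at 646. Its peak had a signal of 303 in replicate 1 and of 334 in replicate 2. The summit lay 8 bp upstream of the gene in the conservative list and in replicate 2, and at the second base of the gene (position 1, with 0 the first base) in replicate 1. The pair C51F7.4 and C51F7.3, in frm-7, a gene for a FERM domain protein, had a signal of 582, with 288 in replicate 1 and 306 in replicate 2. ZK994.7 and this pair had ranks 1 and 2 in the conservative list and in replicate 1, and ranks 14 and 15 in replicate 2, where the peaks above them lay on mitochondrial DNA. T03F7.8 lies in an intron of the cuticlin-like gene cutl-18 on the opposite strand. It had a signal of 531, with 269 in replicate 1 and 271 in replicate 2. Its summits were 49, 48 and 54 bp upstream in the conservative list and replicates 1 and 2.

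W03C9.9, between genes on chromosome II, had a signal of 456, with 230 in replicate 1 and 220 in replicate 2. ZK265.10, between genes on chromosome I, had a signal of 431, with 229 in replicate 1 and 205 in replicate 2. Y23H5B.10, also between genes, had a signal of 395, with 203 in replicate 1 and 188 in replicate 2. The summits of these 3 genes lay 62, 53 and 37 bp upstream. B0334.12, in an intron of the potassium channel gene twk-5 and on its opposite strand, differed: its peak had a signal of 391, with 197 in replicate 1 and 196 in replicate 2, and its summit lay past the end of the gene, at position 128. The replicates placed this summit at positions 130 and 127.

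The next 12 genes had conservative signals of 256 to 337, replicate 1 signals of 120 to 161 and replicate 2 signals of 116 to 180. They were T19B4.8, C10C6.8, F38E11.14, Y75B12B.12, T06C12.16, T02E1.9, C41C4.11, D1046.6, ZK484.9, C05D2.15, Y43F8C.22 and F32E10.10. C10C6.8 lies in catp-8, a gene for a cation-transporting ATPase, F38E11.14 in the cyclic nucleotide-gated channel gene cng-3, D1046.6 in the mRNA 3′ end processing gene cfim-2 and ZK484.9 in the ABC transporter gene haf-9. T02E1.9 overlaps an exon of spe-12, a gene active in sperm, while C05D2.15 is in an intron of madf-11 and Y43F8C.22 in one of Y43F8C.7. Of the 20 strongest genes, 10 were intronic, 8 intergenic and 2 exonic, and 17 had the summit upstream. All 20 were in both replicates' thresholded lists, and their replicate summits lay a median of 6 bp apart (range 1 to 61 bp).

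**Figure D1:**
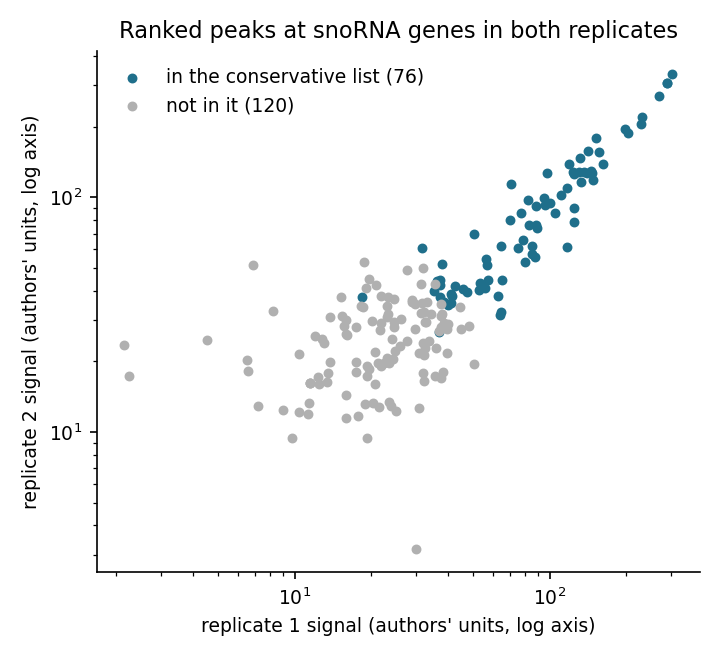
Signal of the strongest ranked peak at each snoRNA gene in replicate 1 (horizontal, log axis) against replicate 2 (vertical, log axis); points are the 196 genes with a ranked peak in both replicates. The 76 genes of the conservative list (blue) were selected for ranks that repeat between the replicates and reach the highest signals, and the 120 others (grey) lie at low signal; Spearman's rho over all 196 was 0.78.

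Over all 196 genes with a peak in both replicates' unthresholded ranked lists, Spearman's rho between the replicate signals was 0.78. Over the 76 conservative genes among them it was 0.91, and over the 120 genes outside the conservative list it was 0.30. The genes share libraries and the control, so these values are descriptions across genes. The conservative list was itself made by selecting peaks whose ranks repeat between these replicates, so the last 2 values follow a selection on the same ranks and their difference is not a result. The replicate summits lay a median of 15 bp apart over the 76 genes (quartiles 7 and 36.5 bp). The median was 8 bp for genes at or above the median signal and 29 bp for those below it.

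Of the 78 genes, 45 were in both replicates' thresholded lists, 11 in replicate 1 alone and 4 in replicate 2 alone. The other 18 were in neither replicate's thresholded list. Their calls come from the conservative list alone, which compares the ranks of the replicates. Over all 78 genes, 76 had a peak in both replicates' unthresholded ranked lists. The 45 genes found in both had conservative signals of 101 to 646 (median 243), the 15 found in 1 replicate 70.04 to 156 (median 102), and the 18 found in neither 29.4 to 95.5 (median 77.0).

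Most summits stood just upstream of the snoRNA gene. The summit was upstream at 59 of the 78 genes (75.6%, 64.6% to 84.7%), inside at 10 (12.8%) and downstream at 9 (11.5%), with the summit common to C51F7.4 and C51F7.3 counted for each gene. Replicate 1 had 44 of 58 upstream (75.9%) and replicate 2 had 43 of 52 (82.7%). The 59 upstream summits lay a median of 40 bp before the first base of the gene (quartiles 18.5 and 53 bp). The replicates' own upstream summits had medians of 44.5 bp in replicate 1 and 48 bp in replicate 2. In all, the summit of 56 of the 78 genes fell in the 100 bp before the gene. Among the 39 genes with signal at or above the median, 33 had the summit in those 100 bp, against 23 of the 39 genes below it. Upstream summits had a median signal of 187, those inside 99.2 and those downstream 79.3.

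**Figure D2:**
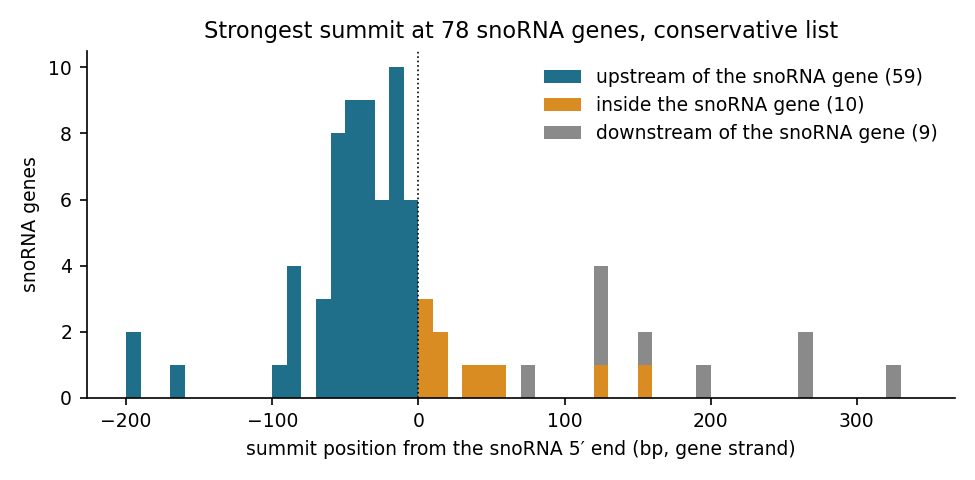
Position of the strongest conservative summit relative to the 5′ end of 78 snoRNA genes, in bp along the gene strand (horizontal, 10 bp bins; negative is upstream), as the number of genes (vertical). The 59 upstream summits pile up in the last 100 bp before the gene, with a median distance of 40 bp.

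Summits inside the gene were few. Besides C51F7.4, with its summit at position 19, Y75B12B.12 had one at position 37 with a conservative signal of 307. F12F6.11 (signal 173, position 1) and Y53F4B.48 (170, position 0) had theirs at the very start of the gene, as did F47G4.9 (102, position 2). The last 5 were weaker: F54F11.6 in sre-45 had a signal of 96.2, T07D4.7 91.8, Y71G12B.41 73.6, K10G6.11 in sea-2 72.4 and F25H2.14 in tct-1 70.04. Their summits lay at positions 152, 50, 12, 43 and 125. F12F6.11, Y53F4B.48 and F47G4.9 each had a ranked replicate summit 1 to 6 bp upstream of the gene, so a few bases decide their class.

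Of the 9 downstream summits, B0334.12 had the strongest. C24A1.8 in elf-1, chosen after its values were seen, followed with a signal of 165 and a summit at position 269, which replicate 1 placed at 268 and replicate 2 at 280. The other 7 had conservative signals of 29.4 to 106, and none of them was in both replicates' thresholded lists.

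The snoRNA summits sat on another side of the gene than those of 2 other small RNA classes. Among snRNA genes, the RNAs of the spliceosome, 21 of 129 had a conservative summit (16.3%, 10.4% to 23.8%), of which 6 were upstream and 10 inside. Among tRNA genes 365 of 612 did (59.6%, 55.6% to 63.6%), with 84 upstream and 258 inside. The share of summits upstream was thus 75.6% for snoRNA genes, 28.6% (11.3% to 52.2%) for snRNA genes and 23.0% (18.8% to 27.7%) for tRNA genes, and the snoRNA interval did not overlap the other two. In replicate 1 the upstream shares were 75.9%, 27.3% and 22.3%, and in replicate 2 82.7%, 62.5% and 27.1%, in the same order of classes. The 62.5% rests on 8 snRNA genes, with an interval of 24.5% to 91.5% that overlaps that of the snoRNA genes.

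**Figure D3:**
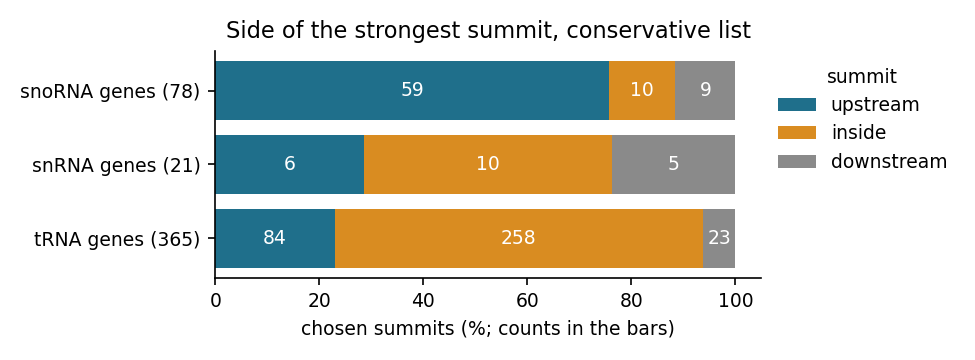
Share of the genes with a conservative summit whose chosen summit lay upstream of (blue), inside (orange) or downstream of (grey) the gene, for snoRNA, snRNA and tRNA genes; counts of genes are in the bars. The summit was upstream at 59 of 78 snoRNA genes and inside at 258 of 365 tRNA genes.

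Intronic and intergenic snoRNA genes had summits about as often. Of 169 genes lying wholly in an intron of a coding gene, 37 had one (21.9%, 15.9% to 28.9%), as did 32 of 124 intergenic genes (25.8%, 18.4% to 34.4%). Of 53 genes that overlap an exon of a coding gene, translated or not, 9 had one (17.0%, 8.07% to 29.8%). In replicate 1 the shares were 16.6%, 18.5% and 13.2%, and in replicate 2 17.2%, 13.7% and 11.3%, so intergenic genes led in the conservative list and in replicate 1 but not in replicate 2, within overlapping intervals. The median conservative signal was 185 at intronic, 148 at intergenic and 148 at exonic genes. Intronic genes with a summit lay in introns of a median 341 bp (quartiles 284 and 828 bp). For those without, the median was 479 bp (quartiles 229 and 2040 bp), so the lengths overlapped widely. The summit was upstream at 30 of the 37 intronic genes and at 23 of the 32 intergenic ones.

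Of 183 snoRNA genes on the strand of their host gene, 33 had a summit (18.03%, 12.8% to 24.4%), and of 39 on the opposite strand 13 did (33.3%, 19.1% to 50.2%). The opposite strand had the larger share in both replicates, with 25.6% against 13.7% of host-strand genes in replicate 1 and 28.2% against 13.1% in replicate 2, but the intervals overlapped in each list. Among intronic genes the shares were 29.6% of 27 on the opposite strand (13.8% to 50.2%) and 20.4% of 142 on the host strand (14.1% to 28%). Among exonic genes they were 41.7% of 12 (15.2% to 72.3%) and 9.76% of 41 (2.72% to 23.1%), again with overlapping intervals. The cause of the strand difference was not tested. Of 19 genes within cytosolic ribosomal protein genes, classical hosts of snoRNAs, B0041.9 in rpl-4 alone had a summit (5.26%, 0.133% to 26.0%), past its end at position 70, with a signal of 82.4. In other coding genes 45 of 203 did (22.2%, 16.7% to 28.51%). Of 52 snoRNA genes that share a host with another, 4 had a summit (7.69%, 2.14% to 18.5%), and these include C51F7.4 and C51F7.3 with their common summit. The groupings by ribosomal protein host and by shared host, and B0041.9 as an example, were chosen after the values were seen.

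Short snoRNA genes had summits more often than long ones. Of 95 genes of 100 bp or less, 38 had a summit (40%, 30.1% to 50.6%), against 40 of 251 longer genes (15.9%, 11.6% to 21.1%). The replicates gave 31.6% against 11.2% in replicate 1 and 31.6% against 8.76% in replicate 2, and in each list the intervals did not overlap. This split was made after the values were seen. The upstream summits lay at like distances in both, a median of 41 bp for the shorter and 38 bp for the longer genes. Of the 95 shorter genes, 12 had a C box (TGATGA) within their first 20 bases and a D box (CTGA) within their last 20, of which 4 had a summit. The class of most snoRNAs is not annotated in the references used here.

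**Figure D4:**
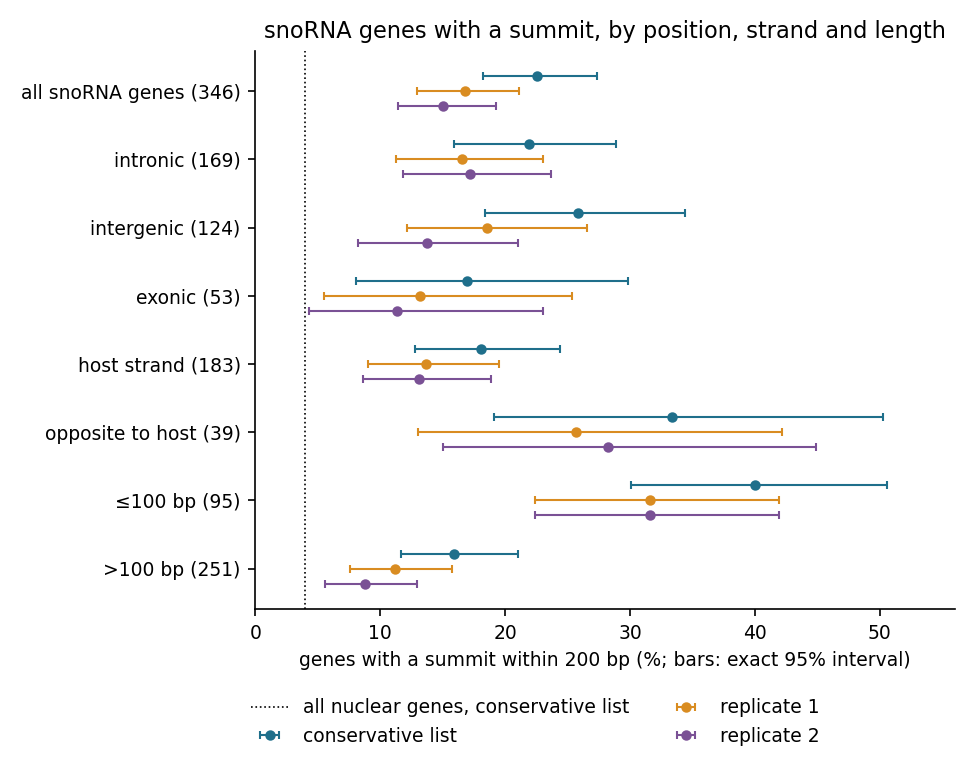
Percentage of snoRNA genes with a summit within 200 bp (horizontal) by position, strand relative to the host and length (vertical, number of genes in brackets), for the conservative list and each replicate's thresholded list; bars are exact 95% intervals and the dotted line is the 3.99% of all nuclear genes in the conservative list. Genes of 100 bp or less stand at 40% in the conservative list, those over 100 bp at 15.9%.

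By chromosome, summits were found at 18 of 74 snoRNA genes on I, 21 of 71 on II, 7 of 54 on III, 15 of 59 on IV, 15 of 55 on V and 2 of 33 on X. The share on X was 6.06% (0.743% to 20.2%), against 13.0% (5.37% to 24.9%) on III and up to 29.6% (19.3% to 41.6%) on II. The interval for X overlapped that of each autosome. No share of all genes by chromosome was set beside these counts, so they do not show a difference particular to snoRNA genes. Replicates 1 and 2 each had a summit at 1 of the 33 genes on X.

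Matches to the boxes of tRNA promoters were more frequent at snoRNA genes with a summit than at those without. The A box consensus and the B box GTTCNANNC were searched on both strands of the 250 bp before to 50 bp after the 5′ end. The comparison was made with the outcome known, and a match is not a tested site. On the gene strand, the A box occurred at 33 of the 78 genes with a summit (42.3%, 31.2% to 54.0%), against 35 of the 268 without (13.1%, 9.27% to 17.7%) and 9.36% of all nuclear genes. The B box occurred at 28 of 78 (35.9%, 25.3% to 47.6%), against 23 of 268 (8.58%, 5.52% to 12.6%) and 5.12% of all nuclear genes. On either strand the A box was found at 50% of the genes with a summit, 23.9% of those without and 18.9% of all nuclear genes, and the B box at 39.7%, 11.9% and 10%.

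Both boxes within the 100 bp upstream marked a small group. There were 21 such genes, of which 17 had a conservative summit (81.0%, 58.1% to 94.6%). Of 40 genes with 1 of the boxes there, 19 had a summit (47.5%, 31.5% to 63.9%), and of 285 with neither, 42 did (14.7%, 10.8% to 19.4%). In the thresholded lists, 17 of the 21 had a summit in replicate 1 and 18 in replicate 2. The pair occurred in the 100 bp before 0.0832% of all nuclear genes. Among genes with a summit, signal was highest with both boxes, at a median of 256, against 98.6 with neither. The 17 genes were found in all positions, with 8 intronic, 7 intergenic and 2 exonic.

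The spacing of the pair was close to that in tRNA genes. In the 17 genes the A box started a median of 44 bp before the B box (quartiles 43 and 45), and in 569 of 612 tRNA genes, those with both boxes inside the gene, the distance was 45 bp (quartiles 44 and 45). Among genes with a summit, the A box started a median of 59.5 bp upstream of the snoRNA in the 30 genes that have one in the 100 bp upstream, and the B box a median of 14 bp upstream in the 23 that have one. The summit lay on a box or between the boxes in 16 of the 17 genes. It was within 5 bp of the middle of the A box in 7 of them, among which are C51F7.3, T03F7.8, W03C9.9 and T19B4.8, and within 5 bp of the middle of the B box in 3, Y43F8C.22, F11A10.9 and ZK546.18. Y75B12B.12 was the exception: its boxes started 57 and 14 bp upstream and its summit was at position 37. The other 16 summits lay a median of 42.5 bp upstream, against 40 bp for all 59 upstream summits at snoRNA genes. Summits thus lay at a like distance whether or not both boxes were matched, and whether the boxes place the summit was not tested. F11A10.9 and ZK546.18 were named after their values were seen.

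**Figure D5:**
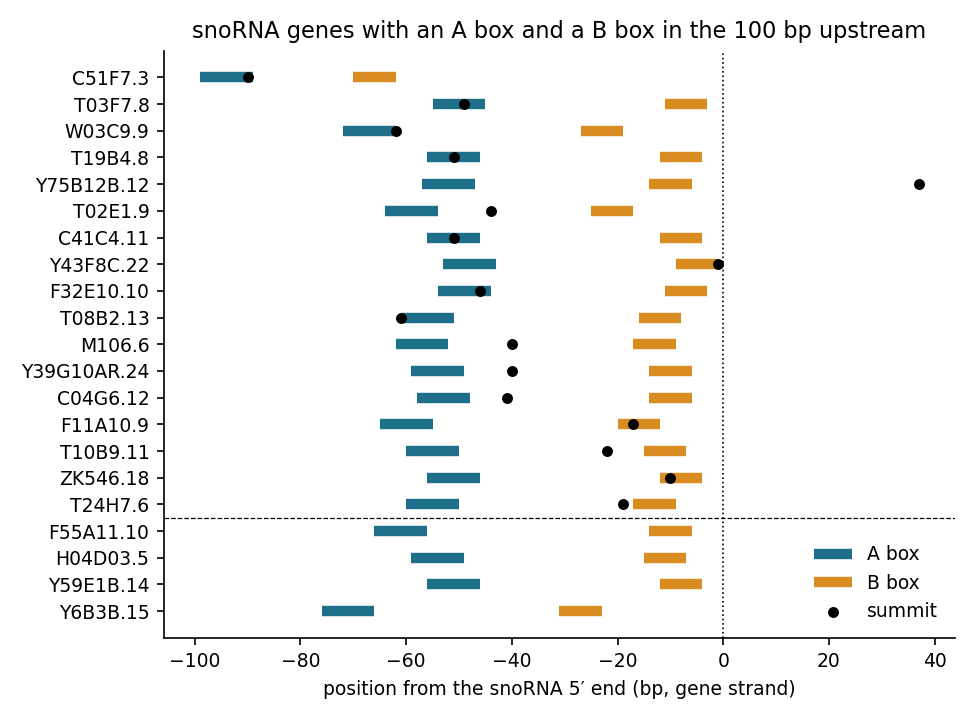
Position of the A box (blue) and B box (orange) and of the conservative summit (black dot) relative to the 5′ end (horizontal, bp along the gene strand) at the 21 snoRNA genes with both boxes in the 100 bp upstream (vertical, by signal; the 4 genes under the dashed line have no conservative summit). Boxes stand in nearly the same place in most genes, and 16 of the 17 summits fall on or between them.

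The search was also centred on the summits, within 70 bp on each side and with the boxes 25 to 70 bp apart on either strand. A pair was found at 18 of the 77 different snoRNA summits (23.4%, 14.5% to 34.4%), 17 of them on the snoRNA strand. At the 9 downstream summits the only pair was that of B0334.12, on the opposite strand, which is the strand of twk-5. Of summits at tRNA genes 79.5% had a pair, and of 1121 conservative summits at neither kind of gene 4.37% did (3.25% to 5.74%).

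A few snoRNA genes lie just after an annotated tRNA pseudogene. The RefSeq annotation has 209 nuclear tRNA pseudogenes, of which 4 lay within 200 bp of a snoRNA gene, each on its strand and ending inside its first bases. T08B2.t1 starts 68 bp before T08B2.13, F19H8.t1 62 bp before F19H8.6, D1046.t1 65 bp before D1046.6 and Y59E1B.t1 63 bp before Y59E1B.14. The first 3 had summits inside the pseudogene, 61, 50 and 42 bp upstream of the snoRNA, with signals of 228, 187 and 274. Y59E1B.14 had no peak in the pooled ranked list or in replicate 1 and a ranked peak of signal 28.6 in replicate 2. Of all 209 tRNA pseudogenes, 10 had a conservative summit within 200 bp (4.78%, 2.32% to 8.62%), among them the first 3 above. The share of all nuclear genes extended in the same way, 3.99%, lay within that interval. Among the 21 genes with both boxes, T08B2.13 and Y59E1B.14 have such a pseudogene and the others have none. The genes at these pseudogenes and the genes with both boxes but no summit were named after their values were seen.

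The 4 genes with both boxes and no conservative summit differed among themselves. F55A11.10, in F55A11.6, had a peak of signal 109 in replicate 2's thresholded list and of 275 in the optimal list, the less strict deposited list of the pooled samples, and none in replicate 1 or the conservative list. H04D03.5 had a ranked signal of 30.7 in replicate 1 and 12.7 in replicate 2. Y6B3B.15 had no peak in any list used, and 18.6% of the 31-base words of its window occur once in the genome, against 100%, 99.4% and 100% for F55A11.10, Y59E1B.14 and H04D03.5. Reads that lie wholly in repeated sequence cannot be placed uniquely, but peak lists do not give the read length. How the authors treated such reads is not stated in the labels. Whether repeats bear on the missing peaks was not tested. Among the 78 genes with a summit, 9 had under 90% unique words and none under 50%, against 17 and 5 of the 171 genes with a pooled ranked summit only, and 14 and 6 of the 97 genes with neither.

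Other motifs differed less or in the other direction. A run of 5 thymines (TTTTT), the terminator of RNA polymerase III, stood in the 100 bp upstream of 8 of the 78 genes with a summit on the gene strand (10.3%, 4.53% to 19.2%), against 101 of 268 without (37.7%, 31.9% to 43.8%) and 57.5% of all nuclear genes. In the 250 bp before to 50 bp after the 5′ end, TTTTT was found on the gene strand at 55.1%, 73.1% and 87.2% of these groups, and on either strand at 83.3%, 92.2% and 96.8%. TATAAA was found there on either strand at 24.4% of genes with a summit, 25% of those without and 37.4% of all nuclear genes. CCGCCC was found at 15.4%, 7.84% and 5.78%, with overlapping intervals for the 2 snoRNA groups. TGATGA was found at 21.8%, 28.0% and 21%, and CTGA at 85.9%, 88.8% and 89.3%.

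The other 268 snoRNA genes had no conservative summit, but 171 had a summit in the pooled ranked list, an unthresholded list of 95232 peaks in which 49% of all nuclear genes have one. With the 78, 249 of 346 snoRNA genes had a summit there (72.0%). The 171 genes had signals of 2.37 to 79.9 (median 37.1). Of them 25 had an IDR of 0.05 or less and none 0.01 or less, while 77 of the 78 genes were at 0.01 or less. The conservative list was itself cut by IDR, so this split of IDR values follows from the selection and is not a result. The summits of the 171 genes were spread more evenly, with 73 upstream, 51 inside and 47 downstream, and 44 in the last 100 bp before the gene.

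The strongest of them overlapped the weaker conservative genes in signal, which begin at 29.4 in the same pooled values. D2096.14 in the nucleosome assembly gene nap-1 had a pooled signal of 79.9, with 31.9 in replicate 1 and 49.96 in replicate 2. W05G11.7 had a pooled signal of 78.4, with 37.4 and 31.2 in replicates 1 and 2. C16A3.11, in the ribosomal protein gene rps-13, had 75.5, with 27.5 and 49.0, while K02F6.11 had 75.5, with 48.2 and 28.2, and R07G3.16 had 73.6, with 44.7 and 27.4. The optimal list added 7 snoRNA genes that the conservative list lacks, including W05G11.7 and R07G3.16, and lacked 8 that it has. Of the 268 genes, 5 had a summit in a replicate's thresholded list.

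The 200 bp limit decided few genes. Just inside it were T28B8.11, with the nearest summit 198 bp away, Y48A6C.10 at 196 bp and M7.15 at 167 bp, with conservative signals of 87.8, 91.1 and 76.5. Just outside were C26C6.13 at 203 bp, Y24D9A.9 in rpl-7A at 323 bp and C27H5.10 in pdl-1 at 330 bp.

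Genes for the proteins of snoRNA particles and of the RNA polymerase III machinery were looked up in a window from 1000 bp upstream to 200 bp downstream of their starts, in which 2.93% of protein-coding genes had a conservative summit. Of 11 snoRNA particle genes, among them fib-1 (fibrillarin, the methyltransferase), nol-56 and nol-58, only ruvb-1 had a summit. This gene, for an ATPase that takes part in assembling the particles, had one 76 bp upstream with a signal of 95.5, found in replicate 2's thresholded list (53.3) and not in replicate 1's. Of 16 genes for polymerase III subunits and initiation factors, only rpc-2, a gene for the second largest polymerase III subunit, had a summit, 115 bp inside, with a signal of 91.5 and in neither replicate's thresholded list.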

How the data were processed

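Worm ChIP-seq peak lists were used as deposited; the authors compared replicates by irreproducible discovery rate (IDR) on assembly ce11, per the labels and the deposited notes. The aligner and peak caller were not given in the sources used here. The deposited signal is the authors' value per peak, not scaled between lists. Summit offsets are as deposited. The deposited score comes from the peak's IDR, and ranked lists add the −log10 of the global IDR, deposited as a further score. The lists used were the conservative (1537 peaks), optimal and pooled ranked lists and each replicate's thresholded and ranked list; a second pooled ranked list was not used. Read depth is not in these lists, and intervals cover the counting of genes only.

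Genes came from Ensembl release 115 (WBcel235, the same assembly as ce11), tRNA pseudogenes and sequence from RefSeq's WBcel235. A snoRNA gene was intronic when wholly inside an intron of a coding gene and clear of coding-gene exons, exonic when it overlapped one, otherwise intergenic; with several summits the strongest was taken. Shares carry exact 95% Clopper-Pearson intervals (scipy 1.17.1, pandas 2.3.3, Python 3.11.15). No significance test was run: there is 1 group of 2 replicates. Assignment and motif search were tested on simulated data.

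The genes named were the 20 of highest conservative signal, all with a summit inside, the 5 of highest pooled signal without a conservative summit, the 3 nearest the 200 bp limit on each side, host genes of these, and list genes with a summit; others are marked in the text as chosen after their values were seen. The members and lists were chosen with earlier results of these data known. The alternatives were a 100 or 500 bp window, other lists, each replicate alone, a signal cutoff, whole-peak overlap, merged genes and other motif windows.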

Additional observations from a re-analysis of the deposited data

How the results depend on the processing

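The alternatives comprised 87 values for 14 results, of which 68 stayed within the interval of the reported share, the spread of the replicates or 1.5 times the count. The share of snoRNA genes with a summit ranged from 15.0% to 16.8% when 1 replicate's list was used alone; those lists are shorter. It was 30.3% with pooled ranked peaks at an IDR of 0.05 or less and 17.3% with conservative peaks at or above the list's median signal. With that pooled ranked list the intronic share was 30.2%, the host-strand share 25.1% and the share of summits upstream 63.8%. The intergenic share ranged from 13.7% to 18.5% with 1 replicate alone.

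The median signal percentile ranged from 83.15 to 84.6 with 1 replicate alone, and was 90.1 with a 100 bp window and 83.7 with a 500 bp window. Over the whole extended gene, the A box share was 57.7% of genes with a summit and 20.9% of those without, and the B box share 14.2% of those without. In the 100 bp upstream, genes without a summit had an A box in 7.09% and a B box in 3.73%. With the shorter B box GTTCNA, which the full B box contains, the B box shares were 52.6% of genes with a summit and 29.9% of those without. The 100 bp motif window, the shorter B box and the removal of genes at tRNA pseudogenes were chosen after seeing the data; without those genes 75 of 342 had a summit. The cause of the changes was not tested. No paired analysis was possible because the samples form a single group. Peak lists give no depth, so genes without a listed peak cannot be called unbound.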

Other observations

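The 7-base word GTGTCGG, picked after the sequences upstream of the snoRNA genes had been seen, stood on the gene strand in the 100 bp before 8 of the 78 snoRNA genes with a conservative summit (10.3%, exact 95% interval 4.53% to 19.2%), against 9 of the 268 without (3.36%, 1.55% to 6.28%). It stood there in 7 of 129 snRNA genes (5.43%) and in 0.232% of all nuclear genes. In the replicates' thresholded lists it was found at 4 of 58 snoRNA genes with a summit and 13 of 288 without in replicate 1, and at 2 of 52 with and 15 of 294 without in replicate 2. The word was chosen on these genes, so the counts are a description.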
